A study of Mus musculus with 11 samples.

Results

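Proteins destined for the cell surface, the secretory pathway or the reticulum's own membrane are threaded into the endoplasmic reticulum through the Sec61 channel, have their signal peptide cut off, and receive a preassembled glycan or a glycosylphosphatidylinositol (GPI) lipid anchor. Glycoproteins that do not fold are trimmed by mannosidases and passed back to the cytosol for breakdown by the proteasome. In the heart this machinery makes the secreted natriuretic peptides, matrix proteins, receptors and channels. The genes described here are those whose symbol on the array marks them as part of this machinery: translocation (Sec61, Sec62, Sec63, Ssr and Srp genes), signal peptide cleavage (Sec11 and Spcs genes), the glycan precursor (Alg, Dpm and Pmm genes, Mpi and Mpdu1), its transfer (Stt3 genes, Rpn1, Rpn2, Ddost, Dad1, Ost4, Ostc and Krtcap2), GPI anchors (Pig genes) and degradation (Derl and Edem genes). By this rule 46 of the 8146 genes named on the array were members, and all 46 had a value on at least 9 of 11 arrays. The pattern of symbols also takes in Pigr, the polymeric immunoglobulin receptor, which is no GPI gene and is kept apart below. Srp54a lay only on spots that carry several gene symbols and was not counted.

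RNA came from the ventricles of 12 TG1306/1R males, aged 60 weeks, of strain C57/BL6. Carriers of this line make extra angiotensinogen, the precursor of angiotensin II, in the heart. The groups were 4 heterozygous carriers with a dilated heart (Dil), 4 heterozygous carriers with concentric hypertrophy (Hyp) and 4 littermates without the transgene (WT). Carriers were assigned to Dil or Hyp from chamber shape, the cardiac weight index and hypertrophic marker expression, so the groups are phenotypes of 1 genotype and not separate treatments. Mice are numbered 1 to 4 in each group. For Hyp3 the labels give a different cardiac weight index on each of its 2 arrays, and it was taken here as 1 mouse. Same-numbered mice form a set, and each of the 11 cDNA arrays compared 2 mice of a set by their log2 ratio of Cy5 over Cy3 dye (3 arrays of Dil and WT, 4 of Hyp and WT, 4 of Dil and Hyp). On the Dil and WT arrays the Dil mouse was in Cy5 in sets 1 and 3 and in Cy3 in set 4. On the Hyp and WT arrays the Hyp mouse was in Cy5 in sets 1 and 4 and in Cy3 in sets 2 and 3. Values of single arrays below are not corrected for dye, whereas the fits are.

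The deposited values are ratios, so no level of any gene is known and a tissue marker can be read only for its difference between groups. In bulk ventricle, fewer cells of a type and less RNA per cell cannot be told apart. The direction of the ratio is likely but not stated. It rests on Agt (angiotensinogen, 2.17 ± 0.38 in Dil minus WT and 2.12 ± 0.36 in Hyp minus WT) and Nppb (B-type natriuretic peptide, 2.53 ± 0.32 and 1.02 ± 0.30), which came out higher in carriers, and if the ratio ran the other way all signs below would be reversed. The spots of the Hyp1 and WT1 array were deposited out of order and were realigned. The spread of all features' ratios (median absolute deviation) was 0.313 and 0.327 on the Dil and WT arrays of sets 3 and 4, against 0.106 to 0.165 on the 4 Hyp and WT arrays. Of 12097 features tested, 277 passed the threshold (adjusted p under 0.05, limma with Benjamini-Hochberg adjustment over all features) in Dil minus WT, 0 in Hyp minus WT and 23 in Dil minus Hyp. Agt and Nppb passed in Dil minus WT (adjusted p = 0.0209 and 0.00778, limma) but not in Hyp minus WT (0.682 and 0.955). In Hyp minus WT even the gene that the line overexpresses thus failed the adjusted test.

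Among the 46 members, 1 passed in Dil minus WT (2.29% of all features passed), 0 in Hyp minus WT (0% of all features) and 0 in Dil minus Hyp (0.19% of all features). The member that passed was Pigc, a subunit of the enzyme that starts GPI anchor synthesis, which fell in Dil hearts by 0.69 ± 0.16 on the log2 scale (adjusted p = 0.0492, limma). This call did not hold with the sets as replicate block (adjusted p = 0.165) or without any 1 of the 4 sets (0.0758 to 0.287). At the looser limit of an unadjusted p under 0.05, which corrects for nothing, 13 members (28.3%) lay higher and 0 lower in Hyp than in WT hearts, where 2.4% of all features lay higher and 2.16% lower. Dil minus WT had 9 members higher (19.6%) and 2 lower (4.3%) at this limit, against 8.13% and 8.27% of all features. Dil minus Hyp had 1 higher (2.2%) and 3 lower (6.5%), against 5.33% and 4.49%. The 13 in Hyp minus WT were Sec63, Ssr1, Ssr2, Ssr3, Sec11c, Mpdu1, Rpn1, Rpn2, Ddost, Ostc, Derl1, Derl2 and Edem1, and each of them failed the adjusted test (smallest adjusted p 0.856, limma).

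**Figure D1:**
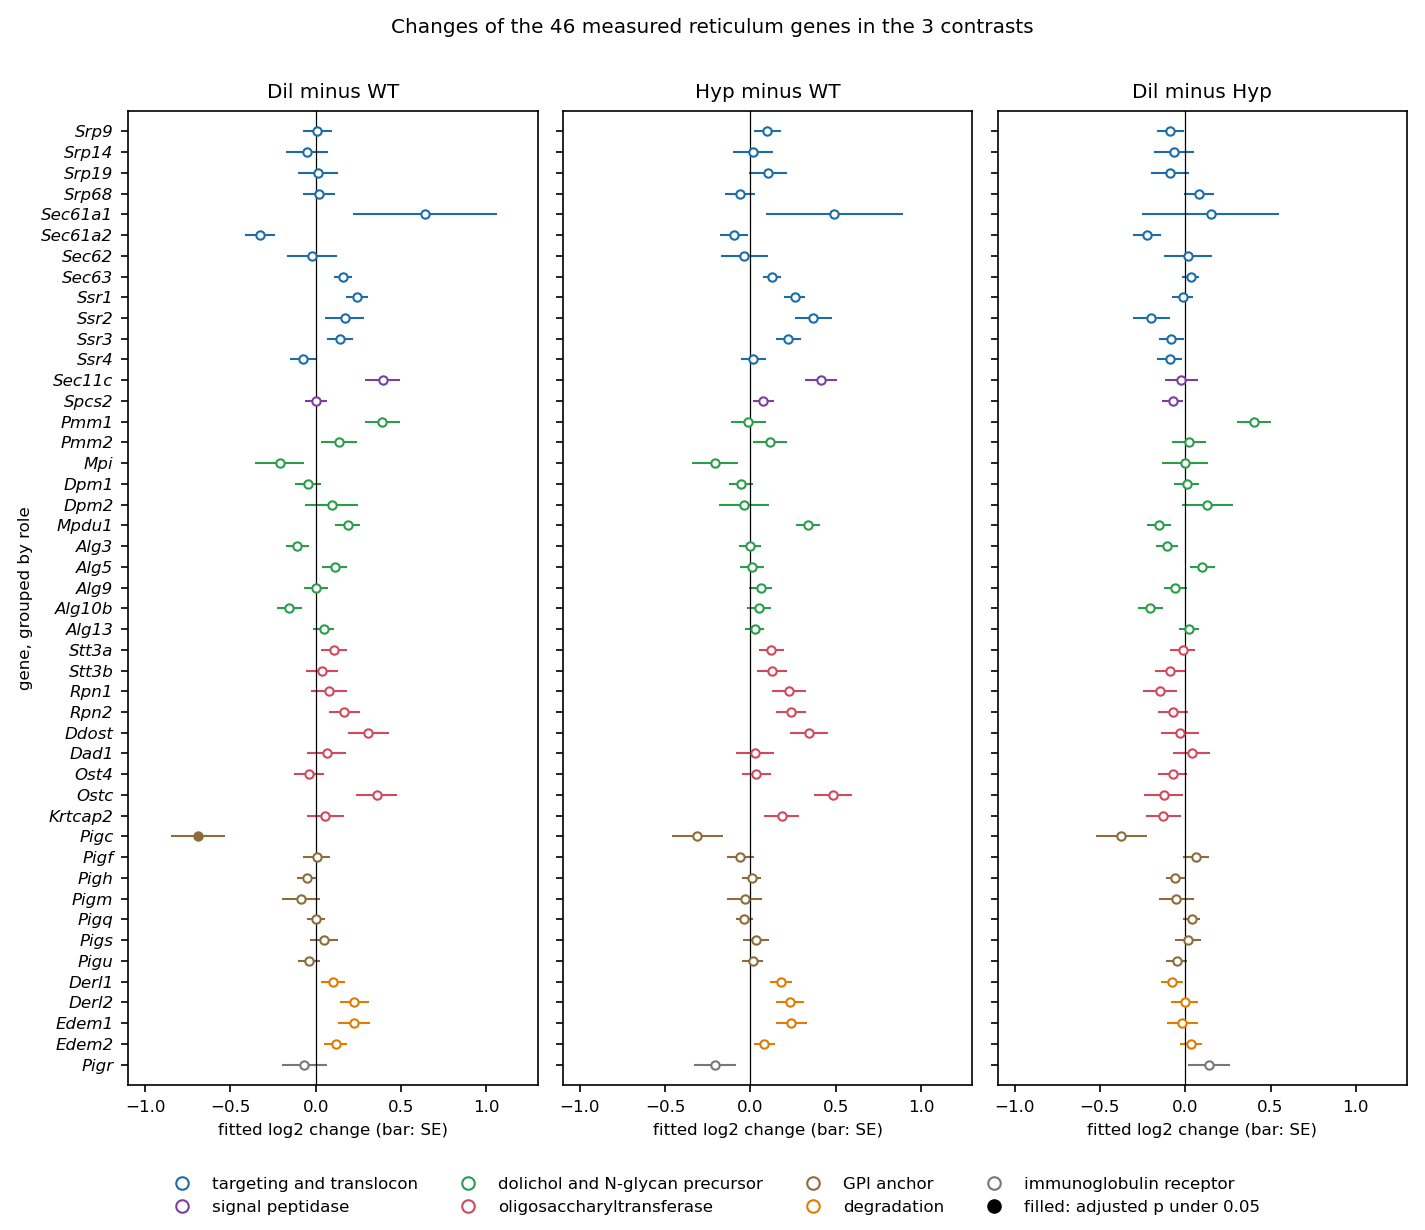
Fitted log2 change (horizontal axis, point) with its standard error (bar) of each of the 46 members (vertical axis, coloured by role) in Dil minus WT, Hyp minus WT and Dil minus Hyp, 4 mice per group. The single filled point, Pigc in Dil minus WT at -0.69, is the only one with an adjusted p under 0.05, and the 9 oligosaccharyltransferase genes all lie right of 0 in Hyp minus WT.

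The median log2 change over the 46 members was 0.05 in Dil minus WT, 0.06 in Hyp minus WT and -0.04 in Dil minus Hyp, with 0.00 over all features in each. Without set 2 the median was 0.025 in Hyp minus WT and 0.006 in Dil minus Hyp. Without set 1 or 3 it was 0.084 and 0.083 in Hyp minus WT, and with the sets as replicate block it was 0.030 in Dil minus WT. Members above 0 numbered 32 (69.6%), 33 (71.7%) and 16 (34.8%) in the same order, against 51.2%, 50.5% and 48.4% of all features. In Hyp minus WT the member median was 0.08, 0.21, 0.01 and 0.01 in sets 1 to 4, so set 2 stood highest and sets 3 and 4 lay at the level of all features. The 3 contrasts share mice and are not independent of each other.

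**Figure D2:**
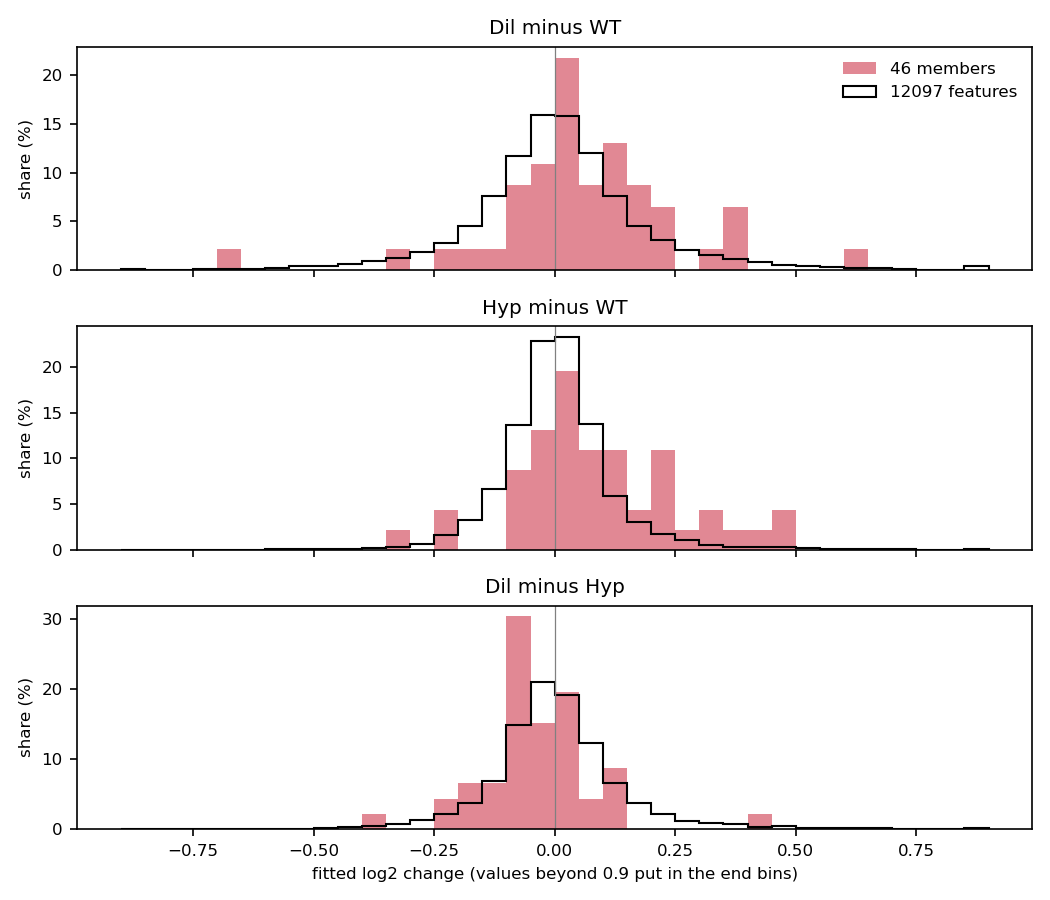
Share of features in percent (vertical axis) by fitted log2 change (horizontal axis) for the 46 members (filled bars) and all 12097 features (line) in the 3 contrasts. In Hyp minus WT 71.7% of the members lie above 0, against 50.5% of all features. There 13 members above 0 have an unadjusted p under 0.05, and 0 below it.

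To show what lies upstream of the 13 genes with higher values in Hyp hearts, 3 promoters are printed, 1 each from translocation (Ssr3), glycan transfer (Rpn1) and degradation (Edem1). Of the 13 genes 9 had a window, and the 3 printed were picked from the 5 whose window held both short motifs searched. The share of all genes with both motifs is not given here. The windows are the 250 bases before the start of the gene, 5′ to 3′, from RefSeq on GRCm38.p6. Capitals mark CCACG, the end of the endoplasmic reticulum stress element (ERSE), and CCAAT, its beginning, on either strand. In these windows the CCACG matches lie further from the gene start than the CCAAT matches, whereas the ERSE begins with CCAAT.
Ssr3, chr3:65392554-65392803, minus strand: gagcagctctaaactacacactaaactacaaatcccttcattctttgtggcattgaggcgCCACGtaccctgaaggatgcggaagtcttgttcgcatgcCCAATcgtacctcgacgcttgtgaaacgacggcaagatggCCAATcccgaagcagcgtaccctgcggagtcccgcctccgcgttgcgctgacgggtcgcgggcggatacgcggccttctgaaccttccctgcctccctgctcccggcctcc
Rpn1, chr6:88084223-88084472, plus strand: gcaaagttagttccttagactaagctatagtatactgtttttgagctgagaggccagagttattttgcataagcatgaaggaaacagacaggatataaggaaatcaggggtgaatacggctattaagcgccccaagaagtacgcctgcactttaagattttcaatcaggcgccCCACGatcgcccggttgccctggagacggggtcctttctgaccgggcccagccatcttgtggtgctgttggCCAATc
Edem1, chr6:108828391-108828640, plus strand: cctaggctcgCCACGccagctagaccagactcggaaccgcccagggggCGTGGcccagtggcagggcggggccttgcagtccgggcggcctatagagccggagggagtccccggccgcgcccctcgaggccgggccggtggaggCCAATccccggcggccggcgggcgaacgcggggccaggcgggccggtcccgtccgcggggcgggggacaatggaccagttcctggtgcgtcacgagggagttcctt

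The ERSE (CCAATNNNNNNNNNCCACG, both strands) is the element through which the factors ATF6 and NF-Y act on reticulum chaperone genes. Of the 46 members 38 had a window in the promoter table. The full ERSE was in 0 of these 38 and in 0.13% of all 27025 genes. The CCACG letters alone were in 18 of 38 (47.4%), against 31.0% of all genes and 35.5% of protein-coding genes. CCAAT was in 15 of 38 (39.5%), against 37.5% and 39.5%. Of the 13 genes, 9 had a window, with CCACG in 6 and CCAAT in 7. Both short motifs lie inside the ERSE, and a match of letters is a description of the window and not a binding site.

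Among the 12 genes of targeting and translocation, 4 had an unadjusted p under 0.05 in Hyp minus WT, namely Sec63 and 3 genes of the translocon-associated protein complex, which sits beside the Sec61 channel. None of them passed the adjusted test. Ssr1, the alpha subunit of that complex, was at 0.33, 0.43, 0.11 and 0.12 on the Hyp and WT arrays of sets 1 to 4. It was thus above 0 on each direct array, higher in sets 1 and 2. The fitted change was 0.26 ± 0.06 (1.20-fold, SE, 4 mice per group, unadjusted p = 0.00146, adjusted p = 0.856, limma), and its 3 spots gave 0.23 to 0.27. In Dil minus WT the Ssr1 arrays of sets 1, 3 and 4 gave 0.20, 0.21 and 0.31, with a fit of 0.24 ± 0.06 (adjusted p = 0.0827). On the Dil and Hyp arrays Ssr1 read -0.19, -0.03, 0.08 and 0.05, on both sides of 0.

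The beta subunit gene Ssr2 was at 0.37 ± 0.11 in Hyp minus WT and 0.17 ± 0.11 in Dil minus WT. The gamma subunit gene Ssr3 was at 0.22 ± 0.07 and 0.14 ± 0.08. The delta subunit gene Ssr4 was at 0.02 ± 0.07 and -0.07 ± 0.08, and its 2 spots lay on different sides of 0. Sec63, a channel partner with a J domain that recruits the chaperone BiP, was at 0.13 ± 0.05 in Hyp minus WT and 0.16 ± 0.05 in Dil minus WT. The 2 spots of Sec63 did not read alike, with 0.03 and 0.22 in Hyp minus WT and 0.04 and 0.28 in Dil minus WT. Sec62, the neighbour of Sec63 at the channel, was at -0.04 ± 0.14 and -0.02 ± 0.15.

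The 2 genes for the channel's alpha subunit read differently. Sec61a2 was below 0 on the 3 Dil and WT arrays, with -0.32, -0.32 and -0.26 in sets 1, 3 and 4. On the Dil and Hyp arrays it read -0.08, -0.28, -0.50 and -0.18, and on the Hyp and WT arrays -0.27, 0.17, -0.29 and -0.14. Among these 11 arrays only the Hyp and WT array of set 2 lay above 0. The fit gave -0.33 ± 0.09 in Dil minus WT (0.80-fold, adjusted p = 0.0821, limma), -0.10 ± 0.08 in Hyp minus WT and -0.23 ± 0.08 in Dil minus Hyp (adjusted p = 0.353).

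Sec61a1 varied too much between arrays, even those of the same mice, to be read. Its Dil and WT arrays of sets 1, 3 and 4 gave 0.17, -1.20 and 1.86, and its Hyp and WT arrays of sets 1 to 4 gave 0.00, 0.53, 0.22 and 1.67. Its Dil and Hyp arrays of sets 1 to 4 gave -0.03, 1.49, 0.52 and -0.94. In set 3, Dil3 thus read below WT3 but above Hyp3, which itself read above WT3. The fits were 0.64 ± 0.42 in Dil minus WT and 0.49 ± 0.40 in Hyp minus WT from a single spot, the largest standard errors among the members. The 4 genes of the signal recognition particle, which brings ribosomes to the reticulum, were Srp9, Srp14, Srp19 and Srp68, and they lay between -0.06 and 0.10 in Hyp minus WT.

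Of the signal peptidase, the enzyme that removes signal peptides, 2 genes were measured. Sec11c, a catalytic subunit, read 0.14, 0.42 and 0.45 on the Dil and WT arrays of sets 1, 3 and 4. On the Hyp and WT arrays of sets 1 to 4 it read 0.53, 0.76, 0.09 and 0.41. It was above 0 on each of these 7 arrays, and lowest in Hyp hearts in set 3. The fits were 0.39 ± 0.10 in Dil minus WT (1.31-fold, adjusted p = 0.0731) and 0.41 ± 0.10 in Hyp minus WT (1.33-fold, unadjusted p = 0.00111, adjusted p = 0.856, limma). In Dil minus Hyp it was at -0.02 ± 0.10. Spcs2, an accessory subunit, read 0.09, -0.25 and -0.03 on the Dil and WT arrays and 0.11, 0.28, 0.05 and -0.04 on the Hyp and WT arrays, with fits of 0.00 ± 0.06 and 0.08 ± 0.06.

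The 11 genes that build the lipid-linked glycan precursor had medians of 0.05 in Dil minus WT, 0.01 in Hyp minus WT and 0.01 in Dil minus Hyp, and 0 of them passed. Mpdu1, needed for the use of dolichol-linked mannose and glucose inside the reticulum, had the smallest unadjusted p of all members. It read 0.53, 0.38, 0.15 and 0.22 on the Hyp and WT arrays of sets 1 to 4 and 0.48, 0.08 and 0.11 on the Dil and WT arrays of sets 1, 3 and 4. All 7 were above 0, and set 1 was highest in both comparisons. The fit was 0.34 ± 0.07 in Hyp minus WT (1.27-fold, unadjusted p = 0.000478, adjusted p = 0.856, limma) and 0.19 ± 0.07 in Dil minus WT. Its 2 spots did not read alike, with 0.02 and 0.66 in Hyp minus WT, so this value rests on 1 of them.

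Pmm1, a phosphomannomutase, which interconverts phosphorylated forms of mannose, was the member with the largest positive value in Dil minus Hyp. It read 0.30, 0.21, 0.53 and 0.46 on the Dil and Hyp arrays of sets 1 to 4. It read -0.02, 0.44 and 0.83 on the Dil and WT arrays of sets 1, 3 and 4. On the Hyp and WT arrays it read -0.37, 0.00, -0.01 and 0.22. All 4 Dil and Hyp arrays were above 0, whereas the Hyp and WT arrays lay on both sides. The fit was 0.40 ± 0.10 in Dil minus Hyp (1.32-fold, unadjusted p = 0.00184, adjusted p = 0.168, limma), 0.39 ± 0.10 in Dil minus WT (adjusted p = 0.084) and -0.01 ± 0.10 in Hyp minus WT, and its 2 spots gave 0.33 and 0.48 in Dil minus Hyp.

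Its relative Pmm2 was at 0.02 ± 0.10 in Dil minus Hyp and 0.14 ± 0.11 in Dil minus WT. Mpi, the isomerase that feeds mannose phosphate from fructose phosphate, was at -0.21 ± 0.14 in Dil minus WT and -0.21 ± 0.14 in Hyp minus WT. Of the glycosyltransferases of the precursor, Alg10b, which adds the last glucose, was at -0.20 ± 0.07 in Dil minus Hyp (adjusted p = 0.328). The mannosyltransferase genes Alg3 and Alg9 were at -0.11 ± 0.06 and -0.06 ± 0.07 in the same contrast. The glucose donor synthase gene Alg5 was at 0.10 ± 0.07, and Alg13, whose product helps add the second N-acetylglucosamine, was at 0.02 ± 0.06. Dpm1 and Dpm2, the catalytic and regulatory subunits of the mannose donor synthase, were at 0.01 ± 0.07 and 0.13 ± 0.15 there.

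The oligosaccharyltransferase, which transfers the finished glycan to the growing chain, had 9 measured genes. In Hyp minus WT, 9 of 9 genes were above 0, with a median of 0.18 and 4 at an unadjusted p under 0.05, and 0 passed. In Dil minus WT, 8 of 9 were above 0, with a median of 0.08 and 2 at that limit. The set medians in Hyp minus WT were 0.08, 0.49, 0.08 and -0.03, so set 2 was the highest and set 4 lay below 0. In Dil minus Hyp 8 of 9 were below 0, with set medians of -0.08, -0.36, 0.04 and 0.06, and set 2, where the mouse Hyp2 lies on both arrays analysed, stood lowest.

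Ostc, a subunit of the form of the enzyme that works beside the translocon, had the largest value of this group. On the Hyp and WT arrays of sets 1 to 4 it read 0.77, 0.83, 0.24 and 0.37, and on the Dil and WT arrays of sets 1, 3 and 4 it read 0.30, 0.27 and 0.18. All 7 were above 0, and the 2 highest were the Hyp and WT arrays of sets 1 and 2. The fits were 0.48 ± 0.11 (1.40-fold, unadjusted p = 0.00125, adjusted p = 0.856, limma) in Hyp minus WT and 0.36 ± 0.12 (1.28-fold, adjusted p = 0.154) in Dil minus WT.

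Ddost, a non-catalytic core subunit, read 0.12, 0.70, 0.04 and 0.39 on the Hyp and WT arrays and -0.18, 0.11 and 0.92 on the Dil and WT arrays. Of these Dil and WT arrays set 4 read highest. It has the widest spread of ratios and alone has the Dil mouse in Cy3, so set and dye cannot be told apart on these arrays. With the dye fitted, sets 1 to 4 gave 0.03, 0.40, 0.16 and 0.67 in Dil minus WT. The fits were 0.34 ± 0.11 in Hyp minus WT (adjusted p = 0.978) and 0.31 ± 0.12 in Dil minus WT (adjusted p = 0.213). The ribophorin genes Rpn1 and Rpn2, core subunits first found with bound ribosomes, were at 0.23 ± 0.10 and 0.24 ± 0.09 in Hyp minus WT. The catalytic subunit genes Stt3a and Stt3b were at 0.12 ± 0.07 and 0.13 ± 0.09 there, and Krtcap2 was at 0.18 ± 0.10. The small subunits Dad1 and Ost4 were near 0, at 0.03 ± 0.11 and 0.04 ± 0.08.

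**Figure D3:**
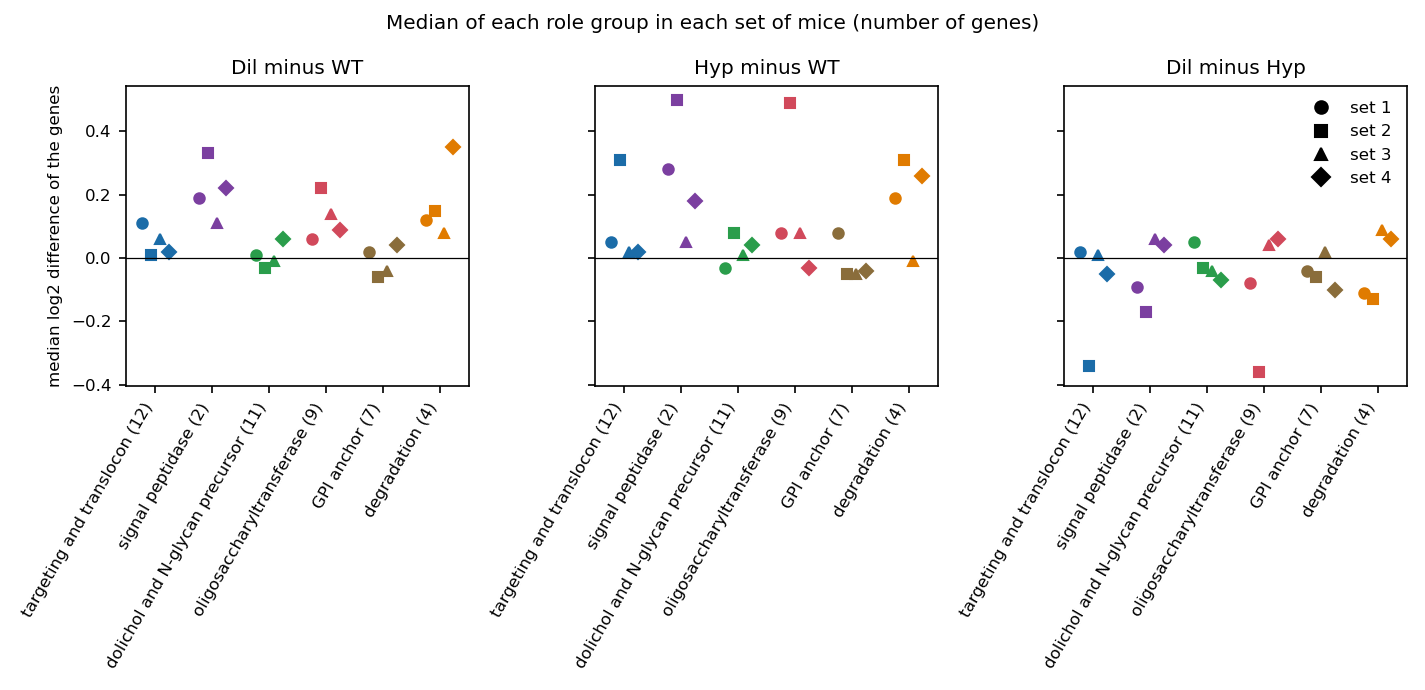
Median log2 difference (vertical axis) of the genes of each role group (horizontal axis, number of genes in brackets) in each set of mice (symbols) for the 3 contrasts, from all arrays of the set. The oligosaccharyltransferase median reached 0.49 in set 2 of Hyp minus WT and lay between -0.03 and 0.08 in the other sets, and the GPI anchor medians stayed within 0.08 of 0 there.

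The 7 GPI anchor genes did not share the positive values. Their median was -0.04 in Dil minus WT, -0.04 in Hyp minus WT and -0.05 in Dil minus Hyp, and 0 had an unadjusted p under 0.05 in Hyp minus WT. Pigc read -0.48, -0.53 and -1.15 on the Dil and WT arrays of sets 1, 3 and 4. On the Dil and Hyp arrays of sets 1 to 4 it read 0.05, -0.53, -0.56 and -0.55, and on the Hyp and WT arrays -0.37, 0.17, -0.09 and -1.06. Each direct Dil and WT array was below 0, and WT4 took part in both of the lowest values. The change in Dil minus WT was -0.69 ± 0.16 (0.62-fold, SE, 4 mice per group, unadjusted p = 0.00108, adjusted p = 0.0492, limma), where 1.25% of all features passed the threshold on the lower side.

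Pigc was at -0.38 ± 0.15 in Dil minus Hyp (adjusted p = 0.410) and -0.31 ± 0.15 in Hyp minus WT (adjusted p = 0.999), from a single spot. The call lay at the threshold. Beside the settings named above, it did not hold with the array of Hyp1 and WT1 left out (adjusted p = 0.0729) or as deposited (0.0667), and under 3 further settings given below, and its change was -0.44 without set 4.

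The partners of Pigc in the same transferase, Pigh and Pigq, had values near 0. Pigh read 0.03, 0.06 and -0.20 on the Dil and WT arrays and 0.10, -0.05, 0.01 and -0.05 on the Hyp and WT arrays, with fits of -0.05 ± 0.06 and 0.01 ± 0.06. Pigq was at 0.00 ± 0.05 in Dil minus WT. Pigm, the first mannosyltransferase of the anchor, was at -0.09 ± 0.11, and Pigf, which takes part in adding ethanolamine phosphate and was measured on 10 arrays, was at 0.01 ± 0.08. Pigs and Pigu, subunits of the transamidase that attaches the anchor, were at 0.05 ± 0.08 and -0.04 ± 0.06. Pigr, the immunoglobulin receptor caught by its symbol, was at -0.07 ± 0.13 in Dil minus WT and -0.21 ± 0.12 in Hyp minus WT.

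All 4 degradation genes were above 0 against WT, with medians of 0.17 in Dil minus WT and 0.21 in Hyp minus WT, and 0 passed. Derl2, a Derlin of the channel complex for export of misfolded proteins, read -0.04, 0.01 and 0.49 on the Dil and WT arrays of sets 1, 3 and 4. On the Hyp and WT arrays of sets 1 to 4 it read 0.06, 0.49, 0.14 and 0.35. On these arrays the Dil values were near 0 except in set 4, the only one of them with the Dil mouse in Cy3, and the Hyp values were above 0 on each array. With the dye fitted, sets 1 to 4 gave 0.13, 0.11, 0.14 and 0.44 in Dil minus WT. The fits were 0.23 ± 0.08 in Dil minus WT (adjusted p = 0.200) and 0.23 ± 0.08 in Hyp minus WT (unadjusted p = 0.0143, adjusted p = 0.999, limma).

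Derl1, its relative, read 0.12, -0.02 and 0.27 on the Dil and WT arrays and 0.17, 0.29, -0.01 and 0.14 on the Hyp and WT arrays, so set 3 lay at 0 in both. Its fits were 0.10 ± 0.07 and 0.18 ± 0.06, and its 3 spots gave 0.12 to 0.27 in Hyp minus WT. Edem1, a mannosidase-like protein that marks misfolded glycoproteins, was at 0.22 ± 0.10 in Dil minus WT and 0.24 ± 0.09 in Hyp minus WT. The 2 spots of Edem1 gave 0.07 and 0.37 in Dil minus WT and 0.16 and 0.32 in Hyp minus WT. Edem2, which takes part in the first trimming step, was at 0.12 ± 0.07 and 0.08 ± 0.06.

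**Figure D4:**
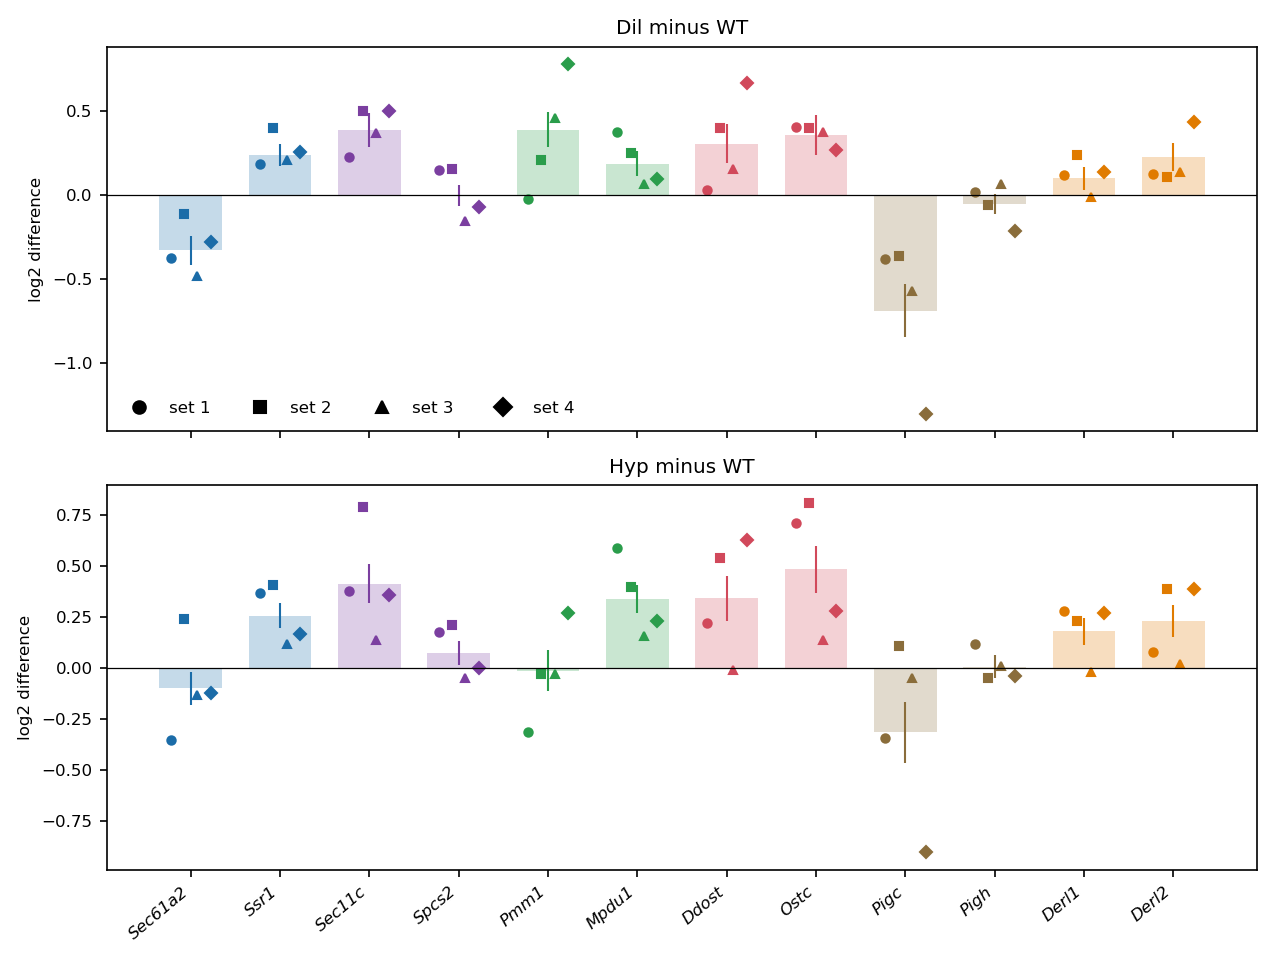
Log2 difference (vertical axis) of 12 members (horizontal axis; Pigc, which passed, and otherwise the 2 of each role group with the smallest p) in Dil minus WT and Hyp minus WT. Bars are fitted changes with standard errors, symbols the value of each set from all its arrays. Pigc reached -1.30 in set 4 of Dil minus WT, and in Hyp minus WT the values of Ssr1, Sec11c, Mpdu1 and Ostc were above 0 in each of the 4 sets.

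Taken as a list chosen by their p, and so as a description alone, the 13 members higher in Hyp hearts ran from 0.13 to 0.48 in Hyp minus WT. Of these, 7 were above 0 in 4 of 4 sets and 6 in 3 of 4, and 10 were above 0 on all 4 direct arrays. Their median was 0.36, 0.44, 0.02 and 0.27 in sets 1 to 4, with set 3 near 0. Agt, which the line overexpresses, was also lowest in set 3 of Hyp minus WT, at 0.41. It was at 2.47, 2.25 and 3.43 in sets 1, 2 and 4. Over all 46 members, however, the median was 0.01 in both set 3 and set 4. The oligosaccharyltransferase and folding genes had their lowest medians in set 4 (-0.03 and 0.02). Signal peptidase and degradation genes had theirs in set 3 (0.05 and -0.01). The part of Agt in these values was not tested. In Dil minus WT the same 13 ran from 0.08 to 0.39, with 8 at an unadjusted p under 0.05, and in Dil minus Hyp from -0.20 to 0.03. The count of 13 fell to 8 with the sets as replicate block, to 8 without set 1 and to 5 without set 2.

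Other genes of the reticulum were read from 7 lists with 167 genes, of which 112 were measured. In Dil minus WT 3 of them passed, and all 3 were higher, where 1.04% of all features passed the threshold on the higher side. They were Ppp1r15a, a stress-induced phosphatase subunit that restores translation (0.61 ± 0.09, adjusted p = 0.00851, limma), Ugp2, which makes UDP-glucose (0.54 ± 0.09, adjusted p = 0.020), and Tram2, a relative of the translocon protein Tram1 (0.31 ± 0.07, adjusted p = 0.0492). None of the 3 calls held with the sets as replicate block (adjusted p = 0.108 for Ppp1r15a, 0.0938 for Ugp2 and 0.215 for Tram2), without set 3 (0.228, 0.227 and 0.333), without set 4 (0.0948, 0.138 and 0.320) or from direct arrays alone (0.616, 0.552 and 0.777). Without set 1 the calls of Ugp2 (0.0761) and Tram2 (0.0811) ended too, and without set 2 that of Tram2 (0.0822). With arrays scaled to the same spread, Ugp2 (0.0997) and Tram2 (0.0644) did not pass either. Tram2 also failed with the Hyp1 and WT1 array left out (0.0752), without its last 8 print blocks (0.0511) and with no dye term (0.0555). Of 17 alternative settings, Ppp1r15a lost its call in 4, Ugp2 in 6 and Tram2 in 10. In both Hyp minus WT and Dil minus Hyp, 0 passed. The lowest p on the lower side of Dil minus WT belonged to Dpagt1, the enzyme that starts the glycan precursor (-0.26 ± 0.06, adjusted p = 0.0509), followed by Erlec1 (-0.20 ± 0.06), a lectin, and Rnf5 (-0.27 ± 0.09), a ubiquitin ligase, both of degradation.

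In Hyp minus WT, 22 of the 112 other genes lay higher and 2 lower at an unadjusted p under 0.05, where 2.4% of all features lay higher and 2.16% lower, and each of them failed the adjusted test. Of the 22, 10 were among the 18 measured folding genes (median 0.27). The smallest p were those of Dnajc3, a reticulum co-chaperone (0.62 ± 0.11, adjusted p = 0.682), Xbp1, which encodes a transcriptional activator of reticulum genes (0.73 ± 0.16, adjusted p = 0.856), and Nfe2l2, a factor of the oxidative stress response (0.45 ± 0.10, adjusted p = 0.856). The 2 lower genes were Erlec1 (-0.19 ± 0.06, adjusted p = 0.978) and the thioredoxin-related Tmx1 (-0.21 ± 0.08, adjusted p = 0.999). Emc1, a subunit of the membrane insertion complex, was next at -0.17 ± 0.08 with an unadjusted p of 0.0674. The set medians of the folding genes were 0.22, 0.68, 0.17 and 0.02. Set 2 was thus the highest for these genes too, as it was for the oligosaccharyltransferase genes.

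In Dil minus Hyp the smallest p on the higher side were those of Ugp2 (0.43 ± 0.09, adjusted p = 0.0904), Ppp1r15a (0.35 ± 0.08) and Creb3 (0.30 ± 0.08), a membrane-bound transcription factor. On the lower side they were those of Dpagt1 (-0.23 ± 0.06), Xbp1 (-0.47 ± 0.16) and Magt1 (-0.28 ± 0.10), an oxidoreductase subunit of the oligosaccharyltransferase that the members' rule does not name. Xbp1 read -0.56, -0.79, -0.26 and -0.23 in sets 1 to 4 and so lay below 0 in each set.

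Of the markers of heart cell types, few were on the array: 3 of 10 cardiomyocyte, 7 of 8 fibroblast, 5 of 8 endothelial, 3 of 6 smooth muscle, 1 of 8 macrophage, 1 of 6 plasma and B cell, 3 of 4 adipocyte and 1 of 3 erythrocyte markers were measured. In each of the 3 contrasts 0 of these markers passed. The fibroblast median was 0.16 in Dil minus WT, with set medians of -0.19, -0.06, 0.33 and 0.28, and 0.00 in Hyp minus WT, with set medians of -0.27, 0.18, 0.22 and -0.16. The median of the 3 cardiomyocyte markers was -0.33 and -0.01 in these contrasts, and in Dil minus WT they were Atp2a2 (-0.47 ± 0.16), Ryr2 (-0.33 ± 0.12) and Ttn (0.08 ± 0.07). The markers nearest the threshold in Dil minus WT, named after their values were seen, were the smooth muscle myosin Myh11 (-0.73 ± 0.18, adjusted p = 0.0571, limma) and the collagen Col3a1 (0.62 ± 0.17, adjusted p = 0.0937). The remaining smooth muscle markers, Cnn1 (-0.03 ± 0.08) and Pdgfrb (0.06 ± 0.08), were near 0, and the median of this list was -0.03. Of the 7 fibroblast markers 5 lay above 0 and 2 below, namely Pdgfra (-0.20 ± 0.10) and Lum (-0.05 ± 0.13). Myh11 read -1.03, -0.31, -0.30 and -1.11 in sets 1 to 4, lowest in set 4, as Pigc was with -0.38, -0.36, -0.57 and -1.30. The part of cell composition in the members' values was not tested.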

How the data were processed

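The authors deposited 1 table with a value per spot and array, taken here as a log2 ratio of Cy5 over Cy3. The log base, scanner, normalization and background correction are not given in the sources read here, and column medians lay between -0.0114 and 0.0068. Spot brightness was not used, so the number of arrays limits the precision. Per the labels' protocols, 25 µg of total RNA per dye was labelled by reverse transcription. The Dil and WT array of set 2 was not analysed here.

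On the array of Hyp1 and WT1, 14080 spots were moved back, a step chosen after seeing the data. Spots of 24 print blocks were moved by 8 blocks. Those of the last 8 blocks were recovered from the first 8 blocks, 4 positions further on in each group of 12. Against the summed ratios of both remaining set 1 arrays, 24 of 24 blocks matched best at this shift (block correlations 0.504 to 0.745, next best at most 0.225), the overall correlation became 0.768 in place of 0.488. The last blocks rest on weaker evidence (8 of 8 positions matched best there, correlations 0.394 to 0.745), and 1312 spots (7.43%) stayed without a value. Correlations were used to find the shift and are not independent evidence for it.

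Spots with 1 gene symbol in the platform annotation were averaged per gene (69 spots for the 46 members). Features with at least 9 arrays (8106 genes and 3991 unnamed spots) were fitted by generalised least squares with a dye term and mice as random effects (shared variance ratio 0.3016), moderated in R 4.3.3 with limma 3.58.1 (3.258 degrees of freedom in the prior) and adjusted by Benjamini-Hochberg over 12097 features. Errors are standard errors of this fit. They rest on 1 variance ratio for all features, so they can understate the spread between mice. The threshold was an adjusted p of 0.05.

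Same-numbered mice are paired by the arrays themselves, and what a set shares cancels in each ratio. The fit with 1 value per set is the replicate block. Array values are printed for members past the threshold and otherwise for the 2 members of each role group with the smallest unadjusted p over the contrasts. Of the other reticulum genes, those past the threshold and the 3 with the smallest unadjusted p in each direction are named. Sec61a1 was described in addition after its values were seen. The members and all lists were chosen with earlier results of these data known. Alternatives were the handling of the Hyp1 and WT1 array, the dye term, the random effect, direct arrays alone, scaling, centring, spot medians, filters, the replicate block and leaving out each set.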

Additional observations from a re-analysis of the deposited data

Results flagged for a closer look

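Among the members' direct arrays, 91 groups of 4 arrays were examined for a value far from the other 3 (Dixon's test), and 8 were found where chance gives about 4.5.

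In Hyp minus WT, Edem2 read -0.06 in set 1 against 0.08 to 0.09 in the other sets, and Pigr read -0.94 in set 3 against -0.11 to -0.01. In Dil minus Hyp, Pigc read 0.05 in set 1 against -0.56 to -0.53 in the other sets, so its lower values come from sets 2 to 4. Mpdu1 read -0.31 in set 1 against -0.14 to -0.10, and Ssr4 read -0.23 in set 2 against -0.03 to -0.01. In set 4, Stt3a read 0.21 against -0.11 to -0.08, Pigq read 0.17 against -0.03 to -0.01, and Pigr read 0.37 against -0.07 to 0.00. Set 4 thus gave 3 of the 6 values in Dil minus Hyp.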

How the results depend on the processing

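Over 17 alternatives, the changes of 12 named members gave 204 comparisons, of which 192 kept direction and side of the threshold, 10 lost the call, 2 gained one and 0 reversed. Each member was followed only in the contrast of its smallest p, where a reversal is least likely. Pigc alone had a call to lose, and all 10 losses among the 17 alternatives were its own. For the remaining members a kept side means staying short of the threshold, so the 192 do not measure robustness. The number of members past the threshold in Dil minus WT, 1 as reported, was 0 with the Hyp1 and WT1 array left out, with its last 8 print blocks left out, from direct arrays only, with arrays scaled to the same spread, with the replicate block, and without any 1 of the 4 replicates. The adjusted p of Pigc was 0.0504 without those 8 blocks, 0.578 from direct arrays and 0.107 after scaling. The number of members was 2, Pigc and Sec61a2 (Sec61a2 at an adjusted p of 0.0456 and 0.0442), with no dye term and with arrays taken as independent, and with the Hyp1 and WT1 array as deposited the 1 member was Pmm1 (0.44, adjusted p = 0.049). The member median in Dil minus WT was 0.099 from direct arrays only against 0.047 as reported. The 13 members higher in Hyp minus WT at an unadjusted p, a count added after seeing the data as was the setting without the last 8 blocks, became 8 with the replicate block and 5 to 11 without 1 replicate.

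Over all features, the 277 in Dil minus WT became 426 with arrays taken as independent, 159 with the Hyp1 and WT1 array left out, 120 after scaling, 6 with the replicate block, 0 from direct arrays and 0 to 121 without 1 replicate. The 23 in Dil minus Hyp became 54 with arrays taken as independent, 42 with no dye term, 41 with that array as deposited, 38 over named genes alone, 7 with it left out, 0 from direct arrays or with the replicate block and 0 to 15 without 1 replicate. Hyp minus WT had 0 in the reported fit, with 551 features at an unadjusted p under 0.05. The cause of these shifts was not tested.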
